A study of Mus musculus with 11 samples.

Results

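Transcription factors that mark the subtypes or the lung and neuroendocrine lineage of small cell lung cancer were followed in 11 mouse tumors: Neurod1, Pou2f3, Yap1, Insm1, Nkx2-1, Foxa1, Foxa2, Prox1 and Nfib. They were taken by symbol, from a list of names with no threshold on a measured value, and are 9 of the 23284 genes in each count table. Pou2f3 did not pass the low-count filter, so 8 of the 9 entered the test. Each tumor carried the genotype that the labels write as Rb;p53, TRE-MYCN and LSL-RTTA: alleles of the tumor suppressor genes Rb and p53, a MYCN transgene under a tetracycline-responsive element, and a transactivator that Cre recombinase switches on. The 7 tumors called MYCN ON are labelled as on doxycycline. The other 4, called MYCN OFF, had the same genotype and were taken 7 days after doxycycline was withdrawn from the feed. The allele details of Rb and p53, the source of Cre, the species of the MYCN cDNA and the age of the animals are not given in the labels. Doxycycline and MYCN changed together, so their effects cannot be told apart. Whether each tumor came from its own animal is not stated, so a p-value here reflects how far these tumors differ among themselves, which may be technical in part.

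Small cell lung cancer is a neuroendocrine carcinoma of the lung, usually without functional RB and p53. Its tumors are grouped by the transcription factor that dominates them, among them the neurogenic basic helix-loop-helix factor NEUROD1, the tuft cell factor POU2F3 and the Hippo pathway coactivator YAP1. INSM1 and PROX1 belong to the neuroendocrine program, NKX2-1, FOXA1 and FOXA2 are lung and foregut lineage factors, and NFIB opens chromatin and is amplified in mouse models of the disease. MYC proteins and neurogenic helix-loop-helix factors both bind E-boxes, DNA words of the form CANNTG, and the MYC proteins prefer CACGTG.

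RefSeq promoters (GRCm38.p6, 250 bases before to 50 after an annotated start, all on the minus strand of the genome) were found for 6 of the 9 genes. Those of Neurod1 and Yap1, the factors with the widest spread between tumors, and of Nkx2-1, which had the highest level per length, are printed with every CANNTG word in capitals.
Neurod1 (chr2:79456587-79456886): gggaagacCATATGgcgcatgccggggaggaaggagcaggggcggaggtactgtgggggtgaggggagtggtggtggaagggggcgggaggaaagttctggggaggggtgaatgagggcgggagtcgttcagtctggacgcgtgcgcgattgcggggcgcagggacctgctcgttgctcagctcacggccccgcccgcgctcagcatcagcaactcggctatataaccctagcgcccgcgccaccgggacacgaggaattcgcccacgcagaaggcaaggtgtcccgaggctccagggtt
Yap1 (chr9:8004547-8004846): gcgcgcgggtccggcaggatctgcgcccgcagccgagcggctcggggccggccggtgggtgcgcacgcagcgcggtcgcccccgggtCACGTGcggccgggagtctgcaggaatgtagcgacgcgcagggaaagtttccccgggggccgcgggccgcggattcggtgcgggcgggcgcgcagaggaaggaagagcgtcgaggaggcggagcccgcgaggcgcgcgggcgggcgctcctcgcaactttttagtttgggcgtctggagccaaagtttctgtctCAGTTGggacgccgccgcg
Nkx2-1 (chr12:56536859-56537158): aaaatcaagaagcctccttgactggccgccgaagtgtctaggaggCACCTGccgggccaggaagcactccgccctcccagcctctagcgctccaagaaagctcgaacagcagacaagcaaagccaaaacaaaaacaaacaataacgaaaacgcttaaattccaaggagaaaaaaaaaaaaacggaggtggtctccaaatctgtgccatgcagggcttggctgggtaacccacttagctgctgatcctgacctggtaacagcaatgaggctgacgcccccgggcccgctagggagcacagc
The Neurod1 window held CATATG, the Nkx2-1 window held CACCTG, and the Yap1 window held CACGTG and CAGTTG. Over 32851 RefSeq promoters of the same length, 72.3% held CANNTG and 7.15% held CACGTG, so the first word is common in any window. CANNTG and CACGTG read the same on both strands, and CACGTG is itself a CANNTG word. A match is a description of the letters and not a measured binding site.

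The reads assigned to genes numbered 10324089 to 13123838 in MYCN ON and 8951733 to 12190957 in MYCN OFF. Levels are given as CPM, a gene's reads per 1000000 reads of its library, scaled by trimmed-mean (TMM) factors, and fold changes are log2 of MYCN ON over MYCN OFF. Over 15237 genes tested with edgeR's quasi-likelihood test, 4475 (29.4%) had a Benjamini-Hochberg adjusted p below 0.05, with 2437 (16.0%) higher and 2038 (13.4%) lower in MYCN ON. Mycn itself ranged from 36.5 to 171 CPM in MYCN ON and from 5.63 to 15.7 CPM in MYCN OFF, and the ranges did not overlap. The neuroendocrine vesicle protein gene Syp was counted in all 11 tumors, at 61.4 to 197 CPM. Markers of normal lung also differed: the summed level of 7 alveolar type II markers was 40.9 to 2110 CPM in MYCN ON and 118 to 15800 in MYCN OFF, and that of 3 club cell markers was 0.885 to 1190 and 13.4 to 16800 CPM. The summed level of 5 immune markers was 31.8 to 102 CPM in MYCN ON and 66.7 to 397 in MYCN OFF. MYCN OFF tumor 1 had the highest sum of all 3 lists. Tumors with Sftpc, the surfactant protein C gene of alveolar type II cells, at 100 CPM or more were 2 of 7 in MYCN ON and 3 of 4 in MYCN OFF.

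Of the 8 subtype factors tested, 1 was higher in MYCN ON (Nfib), where 16.0% of all genes tested were, 0 were lower, where 13.4% were, and 7 did not pass the threshold. Their median log2 fold change was 0.35, against 0.0023 over all genes tested, and 5 of the 8 values were above 0. The ranges of the 2 groups overlapped for each of the 8, while 16.8% of all genes tested had ranges that did not overlap. At an unadjusted p below 0.05 the count was 2, Nfib and Insm1. In bulk tumors, fewer cells of a type and less RNA per cell cannot be told apart, which holds for each level given here.

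**Figure D1:**
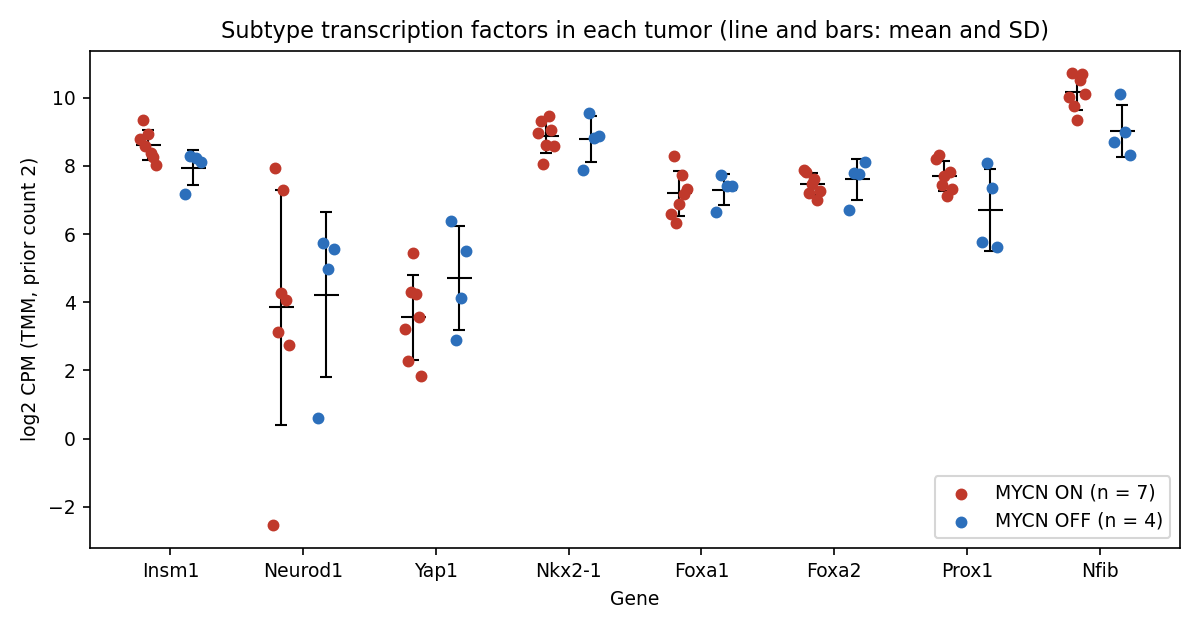
Level of the 8 tested subtype factors (horizontal axis) as log2 CPM with a prior count of 2 (vertical axis); each point is a tumor, red for the 7 MYCN ON and blue for the 4 MYCN OFF tumors, and the line and bars are the mean and SD. The groups overlap for each factor, and Neurod1 spreads most, with a single MYCN ON tumor far below 0 where no read was counted.

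Insm1 encodes a zinc-finger repressor at the centre of the neuroendocrine program. It ranged from 259 to 649 CPM in MYCN ON with a median of 386, and stood at 144, 312, 298 and 278 CPM in MYCN OFF tumors 1 to 4. MYCN OFF tumor 1 was the lowest of the 11 and MYCN ON tumor 2 the highest, and MYCN ON tumors 6 and 7 lay within or below the other MYCN OFF tumors. The mean was 408 ± 132 CPM (SD, n = 7) in MYCN ON and 258 ± 77.4 (SD, n = 4) in MYCN OFF. The log2 fold change was 0.66 (SE 0.28) with an edgeR adjusted p of 0.093, and the two-sided exact permutation test gave p = 0.0515. The difference was not called, and its size was 0.33 under library totals alone, 0.32 with a lung marker score (the mean log2 CPM of the alveolar type II and club markers) as covariate and 0.34 with an immune marker score (that of the immune markers). A 95% limma voom interval ran from 0.065 to 1.26.

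Neurod1, which drives neuronal and endocrine differentiation, was the most uneven of the factors. In MYCN ON tumors 1 to 7 it stood at 0, 247, 8.64, 19.2, 158, 16.6 and 6.53 CPM, and in MYCN OFF tumors 1 to 4 at 1.36, 53.7, 31.5 and 46.6 CPM. MYCN ON tumors 2 and 5 lay above every other tumor, and MYCN ON tumor 1, with 0 reads, lay below. The level in MYCN ON tumor 2 was at least 708-fold higher than the 0.348 CPM that 3 reads would give in MYCN ON tumor 1, and 37.8-fold the level of MYCN ON tumor 7, the lowest of that group with reads. The same 2 high tumors had the lowest Mycn of the group, 59.6 CPM in tumor 2 and 36.5 CPM in tumor 5. MYCN ON tumor 7, with the next lowest Mycn (70.3 CPM), had only 6.53 CPM of Neurod1. All 4 MYCN OFF tumors had less Mycn, 5.63 to 15.7 CPM, and less Neurod1 than the 2 high tumors. The low Mycn of the 2 high tumors was noticed after the values were seen and was not tested. Across the groups the mean was 65.0 ± 97.3 CPM (SD, n = 7) against 33.3 ± 23.2 (SD, n = 4), and the log2 fold change of 0.97 had an SE of 1.36 and an edgeR adjusted p of 0.619. The direction depended on the method: limma voom gave -0.26 with an interval from -3.94 to 3.43. On the log2 scale the means differed by -0.38, less than the SD of either group (3.45 and 2.43, the latter 0.40 without MYCN OFF tumor 1) (two-sided exact permutation p = 0.858).

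Prox1, a homeodomain factor of neuroendocrine and lymphatic endothelial cells, ranged from 138 to 320 CPM in MYCN ON with a median of 208. In MYCN OFF it stood at 54.0, 270, 164 and 48.7 CPM. MYCN OFF tumors 1 and 4 lay below all MYCN ON tumors, whereas MYCN OFF tumor 2 lay among the highest. The group difference was 0.69 on the log2 scale (SE 0.45, edgeR adjusted p = 0.26, two-sided exact permutation p = 0.0788), so it was not called. The value moved in both directions: it was 1.29 without MYCN OFF tumor 2 (adjusted p = 0.0342), 0.43 and 0.42 without MYCN OFF tumors 1 and 4, 0.37 under library totals alone, 0.096 with a lung marker score as covariate and 0.030 with an immune marker score. The summed level of 4 lymphatic endothelial markers was 6.99 to 42.4 CPM in MYCN ON and 10 to 88.8 in MYCN OFF. Among them, Pdpn, which also served here as an alveolar type I marker, gave 34.3 of the 88.8 CPM in MYCN OFF tumor 1. Lyve1 stood at 1.45 to 38.5 CPM over all tumors and Flt4 at 2.09 to 16.0 CPM. The marker Ccl21a was at 0 in every tumor. Reads aligned to several places were counted for no gene, so this 0 cannot show that lymphatic endothelial cells were absent. The part of these cells in the level of Prox1 was not tested.

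Around these 3 factors, 20 markers of neuroendocrine cells gave 1 higher and 2 lower (15% called, against 29.4% of all genes), with 17 not called and a median log2 fold change of -0.14. Uchl1, a neuronal deubiquitinase, rose by 0.81 on the log2 scale (edgeR adjusted p = 0.00697), but lost the call under library totals alone (0.50, adjusted p = 0.0575). Its call was also lost with the immune marker score (0.70, edgeR adjusted p = 0.0742) and kept with the lung score (0.73, adjusted p = 0.0428). The granins Scg2 and Chgb, proteins of secretory granules, fell by 2.79 and 1.23 on the log2 scale (adjusted p = 0.00172 and 0.0419). The call on Chgb was lost under voom (adjusted p = 0.0585) and without any of MYCN ON tumors 1 to 5 or MYCN OFF tumors 2 to 4, with a highest adjusted p of 0.109 without MYCN OFF tumor 2. Neuron-specific enolase, Eno2, had a log2 fold change of -1.22 and was not called (adjusted p = 0.0846). Scg2 was 22.7 to 90.9 CPM in MYCN ON and 142 to 681 CPM in MYCN OFF, 2 ranges that did not overlap. The count of calls in this list was 7 without MYCN ON tumor 7. Of 20 other neurogenic factors, 13 could be tested, with 1 higher (7.69% called), 0 lower and 12 not called, and a median of 0.43. Onecut2, a cut-homeobox factor, was the one called (1.09, adjusted p = 0.0496), and its call was lost under 3 other scalings (adjusted p = 0.058, 0.0896 and 0.139) and without any of MYCN ON tumors 1, 3, 4, 5 or 6 or MYCN OFF tumors 1 or 4, while 3 factors were called without MYCN OFF tumor 2. Sox11, Insm2 and St18 had log2 fold changes of 1.29, 2.16 and 1.04 with adjusted p-values of 0.0634, 0.0898 and 0.118.

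Pou2f3, the master factor of tuft cells, was close to absent from the counts. It had 0, 1, 1, 1, 2, 0 and 0 reads in MYCN ON tumors 1 to 7 and 3, 1, 1 and 0 reads in MYCN OFF tumors 1 to 4. That is 10 reads of 127855146, none above the 3 reads taken as the floor, so no fold was computed. Of 21 tuft cell genes, 8 also failed the filter, among them Trpm5, the taste-transduction channel that defines these cells, which had at most 15 reads in a tumor, and Gfi1b, Il25 and Gnat3, with at most 1, 2 and 5 reads. Alox5, also untested, reached 41 reads. Of the 13 tested, 7 (53.8%, against 13.4% of all genes) were lower in MYCN ON, 0 were higher and 6 were not called, with a median of -1.76. Dclk1, a kinase gene used as a tuft cell marker and also expressed by neurons, had the opposite sign and was not called, at 88.8 ± 67.9 CPM (SD, n = 7) in MYCN ON and 38.5 ± 16.1 (SD, n = 4) in MYCN OFF (log2 fold change 1.20, edgeR adjusted p = 0.19). Among those lower were Pou2af1 (-2.22, edgeR adjusted p = 0.0137), a coactivator of POU factors that B cells express, Alox5ap (-1.76, adjusted p = 0.0293) and Plcb2 (-1.88, adjusted p = 0.0338). Pou2af1 stood at 22.5, 26.6, 16.8 and 6.10 CPM in MYCN OFF and at 0.620 to 7.77 CPM in MYCN ON. Once the immune marker score was a covariate, 0 of the 13 were called, where 10.9% of all genes were, and 1 was at an unadjusted p below 0.05. Pou2af1 was then at -1.82 (edgeR adjusted p = 0.0768), Alox5ap at -0.41 (adjusted p = 0.643) and Plcb2 at -0.41 (adjusted p = 0.605). With the lung score Pou2af1 was at -2.09 and called (adjusted p = 0.047). Alox5ap and Plcb2 were at -0.78 and -0.82 with that score and not called (adjusted p = 0.265 and 0.333). Neither of these 2 was called without MYCN OFF tumor 1 (adjusted p = 0.184 and 0.153). Without MYCN OFF tumor 1 the count of tuft cell genes called was 2, and it was 3 or 4 without MYCN ON tumors 2, 4 or 6 or MYCN OFF tumors 3 or 4.

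Yap1 encodes the coactivator that the Hippo kinases restrain and that TEAD factors carry to DNA. It ranged from 3.43 to 42.9 CPM in MYCN ON with a median of 11.6, and stood at 82.5, 7.23, 17.2 and 44.8 CPM in MYCN OFF. MYCN OFF tumor 1 was the highest and MYCN ON tumor 7 the lowest, with MYCN OFF tumor 4 and MYCN ON tumor 4 next to each other near the top. The mean was 15.7 ± 13.5 CPM (SD, n = 7) against 37.9 ± 33.7 (SD, n = 4). The log2 fold change was -1.27 (SE 0.70) and was not called (edgeR adjusted p = 0.19, two-sided exact permutation p = 0.209), with a limma voom interval from -2.77 to 0.40. The sign of the estimate turned once a marker score was a covariate, to 0.07 with the lung score and to 0.48 with the immune score, with adjusted p-values of 0.977 and 0.70.

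Of 18 Hippo and TEAD genes, 2 were higher in MYCN ON (11.1%, against 16.0% of all genes), 0 were lower and 16 were not called, with a median of 0.09. Lats1, a kinase that restrains YAP1, rose by 0.71 on the log2 scale (edgeR adjusted p = 0.00655), but lost the call with the immune score (0.51, adjusted p = 0.0913). Tead1, a DNA-binding partner of YAP1, also had a log2 fold change of 0.71 (adjusted p = 0.0241), which under library totals alone was 0.40 and not called (adjusted p = 0.115). The call on Tead1 was also lost with the lung or the immune score (adjusted p = 0.18 and 0.33). Without MYCN OFF tumor 1, 3 or 4 it was lost as well (adjusted p = 0.067, 0.0672 and 0.0747). Lats2 and the TEAD target Axl had values of -1.47 and -1.11 and were not called (adjusted p = 0.0679 and 0.0772). The split of calls moved with the scaling, from 2 higher and 0 lower to 1 higher and 4 lower under library totals alone. Without MYCN OFF tumor 2 there were 7 calls in all, and without any of the other 3 MYCN OFF tumors there was 1. Of 18 genes of the non-neuroendocrine state, 7 were lower (38.9%, against 13.4% of all genes), 0 were higher and 11 were not called, with a median of -1.61 and all 18 values below 0. The 4 with the smallest p were Cav2 (-2.47, adjusted p = 0.00296), a caveolar coat protein, Itgb4 (-2.22, adjusted p = 0.017), an epithelial integrin, S100a10 (-1.44, adjusted p = 0.0187) and Epha2 (-2.04, adjusted p = 0.0261). With the lung or the immune marker score as a covariate, 1 was called, where 11.5% and 10.9% of all genes were. Without MYCN OFF tumor 1 the count was also 1, without MYCN OFF tumor 2 it was 12, and it was 3 or 4 without any of MYCN ON tumors 1, 2, 6 or 7 or MYCN OFF tumors 3 or 4. Once a score was added, the median of the 18 values was -0.21 for lung (13 below 0) and -0.13 for immune (11 below 0). In tumors with Sftpc under 100 CPM, of which 1 was MYCN OFF, the median was 0.06 (9 below 0). In those at 100 CPM or more it was -1.31 (18 below 0). The part of normal lung and immune cells in these values was not tested further. Cav2 stood at 148, 62.7, 36.7 and 76.2 CPM in MYCN OFF, all above the 25.4 CPM of the highest MYCN ON tumor.

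**Figure D2:**
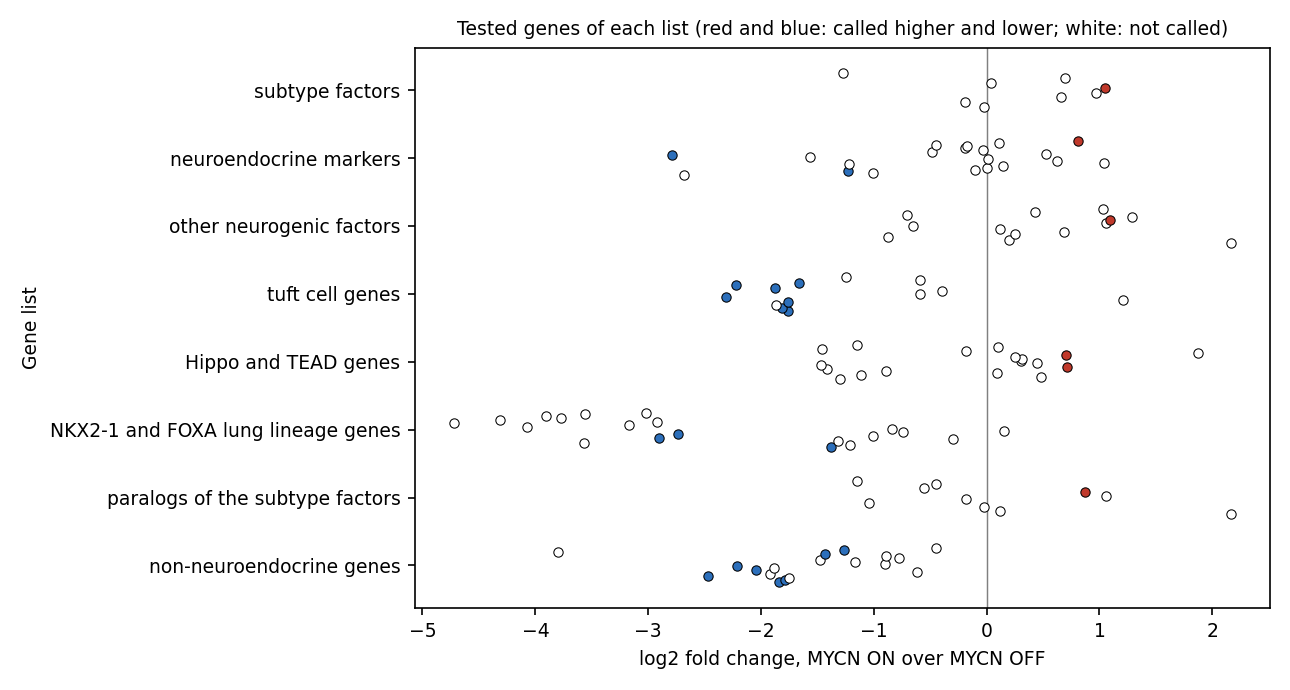
Log2 fold change (MYCN ON over MYCN OFF, horizontal axis) of each tested gene among the subtype factors and in the 7 gene lists; each point is a gene, red or blue where it was called higher or lower and white where it was not called, with vertical offsets only to part the points. The lung lineage, tuft cell and non-neuroendocrine lists lie mostly below 0, with medians of -2.92, -1.76 and -1.61.

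Nkx2-1, the homeodomain factor of lung epithelium, ranged from 266 to 710 CPM in MYCN ON with a median of 495. It stood at 237, 742, 446 and 470 CPM in MYCN OFF. MYCN OFF tumors 1 and 2 held the lowest and the highest value of all 11. The mean was 487 ± 154 CPM (SD, n = 7) against 474 ± 207 (SD, n = 4). The group difference was 0.04 on the log2 scale (SE 0.31, edgeR adjusted p = 0.934, two-sided exact permutation p = 0.815), with a limma voom interval from -0.60 to 0.77. The sign was negative under each of the 3 other scalings, and the data give no direction.

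Foxa1 and Foxa2 encode forkhead pioneer factors that act with NKX2-1 in lung epithelium. Foxa1 ranged from 79.5 to 312 CPM in MYCN ON with a median of 145, and stood at 101, 214, 170 and 169 CPM in MYCN OFF. Foxa2 ranged from 128 to 234 CPM in MYCN ON with a median of 177, and stood at 105, 223, 219 and 277 CPM in MYCN OFF. The MYCN OFF values of Foxa1 lay inside the MYCN ON range, and those of Foxa2 reached below and above it, with tumor 1 the lowest of the 4 for both. The log2 fold change of Foxa1 was -0.03 (SE 0.35, edgeR adjusted p = 0.962) and that of Foxa2 was -0.19 (SE 0.25, edgeR adjusted p = 0.588). The two-sided exact permutation p was 0.755 for Foxa1 and 0.642 for Foxa2.

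By comparison, 20 lung lineage genes that include known targets of these 3 factors had a median log2 fold change of -2.92, with 19 values below 0. Lower in MYCN ON were 3 of the 20 (15%), close to the 13.4% of all genes, and 17 were not called. They were the lipid transporter gene Abca3 (-1.38, edgeR adjusted p = 0.00804), the ETS factor gene Etv5 (-2.91, adjusted p = 0.0174) and the alveolar type I gene Hopx (-2.74, adjusted p = 0.035), while the club cell secretoglobin gene Scgb3a2 was not called at -4.32 (adjusted p = 0.054). Of the list, 10 of 20 genes also serve here as markers of normal lung cells. With the immune marker score as a covariate the median was -0.17, with 12 of the 20 values below 0. With the lung marker score, which shares genes with the list, it was -0.07, with 11 below 0. The part of normal lung cells in these values was not tested further. Without MYCN OFF tumor 1 and with no covariate the count of calls was 1, and without MYCN ON tumor 5 it was 8. MYCN OFF tumor 1, with the highest Abca3 (345 CPM), Etv5 (114 CPM) and Hopx (239 CPM), had the lowest Nkx2-1 and Foxa2 of the 11 tumors.

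Nfib was the 1 factor that passed the test. It ranged from 645 to 1676 CPM in MYCN ON with a median of 1109, and stood at 415, 1091, 512 and 318 CPM in MYCN OFF. All 7 MYCN ON tumors lay above MYCN OFF tumors 1, 3 and 4, and MYCN OFF tumor 2 lay among the MYCN ON tumors. The mean was 1206 ± 401 CPM (SD, n = 7) against 584 ± 347 (SD, n = 4), a 2.06-fold difference. The log2 fold change was 1.05 (SE 0.37) with an edgeR adjusted p of 0.049996, at the edge of the threshold, and the two-sided exact permutation p was 0.0242.

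The call on Nfib was held in 6 of 24 other analyses, and its sign in all 24. With each tumor left out in turn it was held only without MYCN ON tumor 4 (adjusted p = 0.0367) and without MYCN OFF tumor 2. The 24 include the 2 Sftpc classes, in which 0 genes of any kind were called, so they say nothing of the call. With the immune marker score as a covariate the log2 fold change was 0.58 (adjusted p = 0.405), and with the lung marker score it was 0.78 (adjusted p = 0.19). Without MYCN OFF tumor 2 it was 1.55 (adjusted p = 0.00611). In the tumors with Sftpc of at least 100 CPM, Nfib stood at 860 and 1475 CPM in MYCN ON and at 318 to 512 CPM in MYCN OFF. In those under 100 CPM it stood at 645 to 1676 CPM in 5 MYCN ON tumors and at 1091 CPM in the 1 MYCN OFF tumor, number 2.

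**Figure D3:**
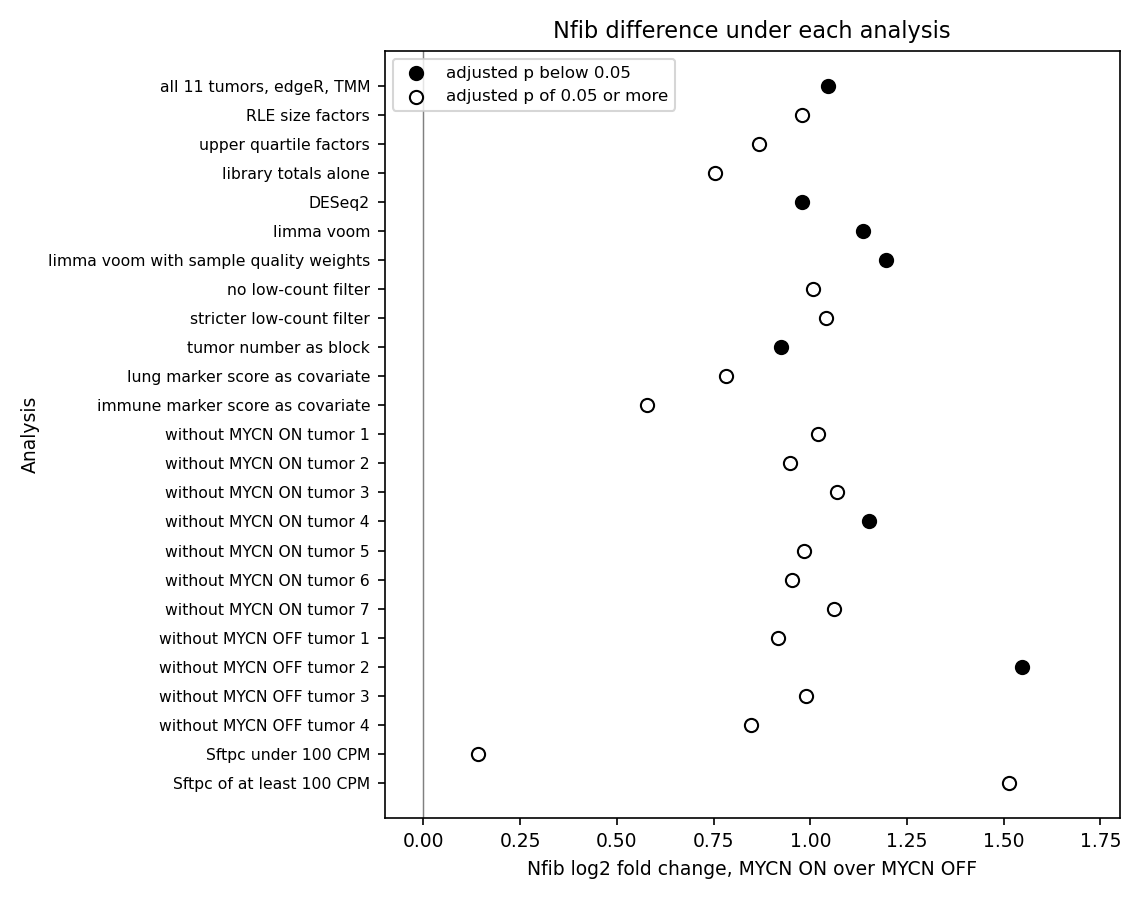
Log2 fold change of Nfib (MYCN ON over MYCN OFF) in the edgeR test of all 11 tumors and in 24 other analyses; filled points have an adjusted p below 0.05. The values run from 0.14 to 1.55, all above 0, and 6 of the 24 others are filled; the 2 Sftpc classes called 0 genes of any kind, and the lower one has 1 MYCN OFF tumor.

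Of 15 paralogs of the subtype factors, 10 could be tested, with 1 higher in MYCN ON (10%), 0 lower and 9 not called, and a median of -0.11. The list shares 5 genes with the neurogenic list and 1 with the Hippo list. Pou2f1, the broadly expressed relative of Pou2f3, was the one called (0.87, edgeR adjusted p = 0.0297), which under library totals alone was 0.56 and not called (adjusted p = 0.105), and 0 of the list were called without any of MYCN ON tumors 1 or 3 or MYCN OFF tumors 1, 3 or 4. The YAP1 relative Wwtr1 (-1.15, adjusted p = 0.205) and the NFIB relative Nfic (-1.04, adjusted p = 0.181) were not called. Pou2f1 was counted at 75.5 to 128 CPM in MYCN ON and 35.5 to 92.9 CPM in MYCN OFF.

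The factors differed in how far the tumors of a group lay apart. The SD of log2 CPM of Neurod1 was 3.45 in MYCN ON and 2.43 in MYCN OFF, larger than that of 99.9% and 98.4% of the genes tested. Yap1 followed, with 1.24 and 1.53, larger than 88.2% and 91.9% of genes. The highest Yap1 tumor had 12.5 times the lowest in MYCN ON and 11.4 times in MYCN OFF. Foxa2 was the most even in MYCN ON, with an SD of 0.32 that exceeded that of 28.2% of genes, and a highest tumor 1.83 times the lowest. Insm1 (0.45 and 0.52), Nkx2-1 (0.48 and 0.68), Foxa1 (0.67 and 0.46) and Nfib (0.52 and 0.76) lay nearer the medians of all genes, 0.48 in MYCN ON and 0.50 in MYCN OFF. Prox1 had an SD of 0.45 in MYCN ON and 1.21 in MYCN OFF, where the highest tumor had 5.54 times the lowest. The difference in spread between the groups was not tested. Single tumors carried several of these values: without MYCN OFF tumor 1 the MYCN OFF SD was 0.40 for Neurod1, 0.082 for Insm1, 0.40 for Nkx2-1, 0.19 for Foxa1 and 0.19 for Foxa2, and without MYCN OFF tumor 2 it was 0.35 for Nfib. Without MYCN ON tumor 1, which had no Neurod1 reads, the MYCN ON SD of Neurod1 was 2.19. MYCN ON tumor 2 had the highest level among the MYCN ON tumors in 5 of the 8 factors (Insm1, Neurod1, Foxa1, Prox1 and Nfib), and MYCN OFF tumor 1 had the lowest level of its group in Insm1, Neurod1, Nkx2-1, Foxa1 and Foxa2 but the highest Yap1.

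**Figure D4:**
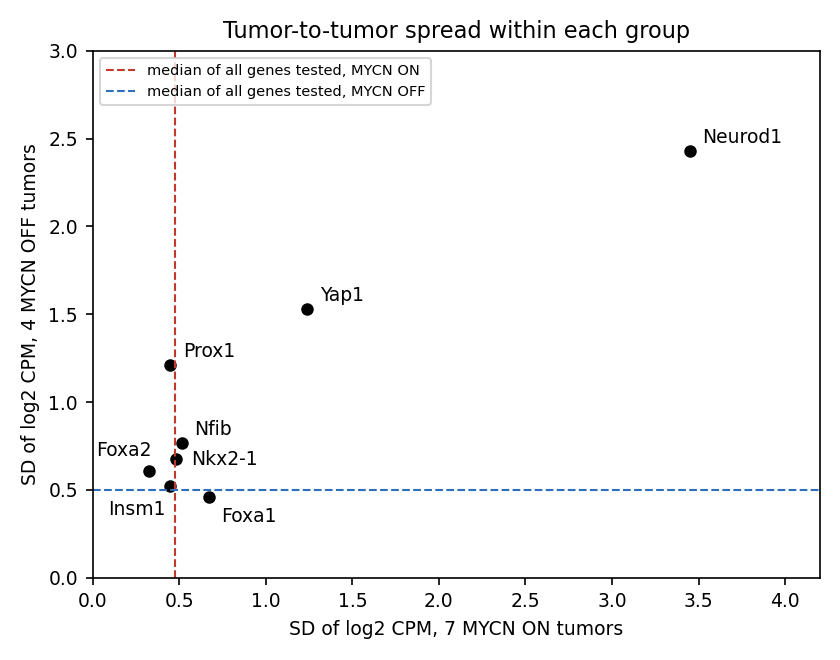
SD of log2 CPM between the 7 MYCN ON tumors (horizontal) and between the 4 MYCN OFF tumors (vertical) for the 8 tested subtype factors; dashed lines are the medians over all genes tested. Neurod1 (3.45 and 2.43) and Yap1 (1.24 and 1.53) lie farthest out, and Prox1 lies above the median line of MYCN OFF (1.21) and near that of MYCN ON (0.45).

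Levels of different genes were compared per length of exon, as RPKM, reads scaled by exon length and library size. Nkx2-1 came first with a median of 166 over the 11 tumors (83.4 to 261), above Nfib in 11 of 11 tumors. Nfib (111, from 34.4 to 182), Insm1 (100, from 46.4 to 209) and Foxa2 (90.2, from 48.2 to 127) followed and did not differ beyond their spread, with Nfib above Insm1 in 4 of 11 tumors and Insm1 above Foxa2 in 7 of 11. Foxa1 (49.8, from 24.9 to 97.8) lay under Foxa2 in 11 of 11 tumors and above Prox1 (20.6, from 5.8 to 38.2) in 10 of 11. Neurod1 (7.04, from 0 to 90.4) and Yap1 (4.13, from 0.822 to 19.8) overlapped, and both had tumors above and below each other. Pou2f3 was last at 0.029, below Yap1 in 11 of 11 tumors, the one pair of neighbours in this order whose ranges did not overlap. The lengths come from another mouse build than the counts, so the order is approximate. Neurod1, Yap1, Nkx2-1, Prox1 and Nfib each overlap an annotated transcript on the other strand, and the strand setting of the counting is not stated in the labels, so the partner's reads may be included in their counts.

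Genes whose level followed Neurod1 or Yap1 most closely were found by the root-mean-square difference of mean-centred log2 CPM over the 11 tumors, a measure of likeness in which 0 is an identical profile. For Neurod1 they were the potassium channel subunit gene Abcc8 (1.46), the LIM homeobox gene Lhx2 (1.73) and the zinc-finger gene Zfp536 (1.76). These distances are wide: Zfp536 stood at 74.6 and 57.7 CPM in MYCN ON tumors 2 and 5 and at 0 in tumor 1, as Neurod1 did at the extremes, but at 32.4 CPM in tumor 6, where Neurod1 was 16.6. For Yap1 they were Cd300lb (0.298), a receptor of myeloid cells, Capg (0.449), an actin-capping protein gene of macrophages and other motile cells, and Osmr (0.462), the oncostatin M receptor gene of stromal and epithelial cells. The distances were not scaled by a gene's spread, and the SD over the 11 tumors was 2.99 for Neurod1 and 1.40 for Yap1. Cd300lb was at most 10.9 CPM and, like Yap1, was highest in MYCN OFF tumor 1 and lowest in MYCN ON tumor 7. Of these 6 genes Capg was lower in MYCN ON (log2 fold change -1.83, edgeR adjusted p = 0.0282), and the others were not called. The summed immune markers were also highest in MYCN OFF tumor 1 (397 CPM) and lowest in MYCN ON tumor 7 (31.8 CPM), and their part in the level of Yap1 was not tested beyond the covariate given above.

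**Figure D5:**
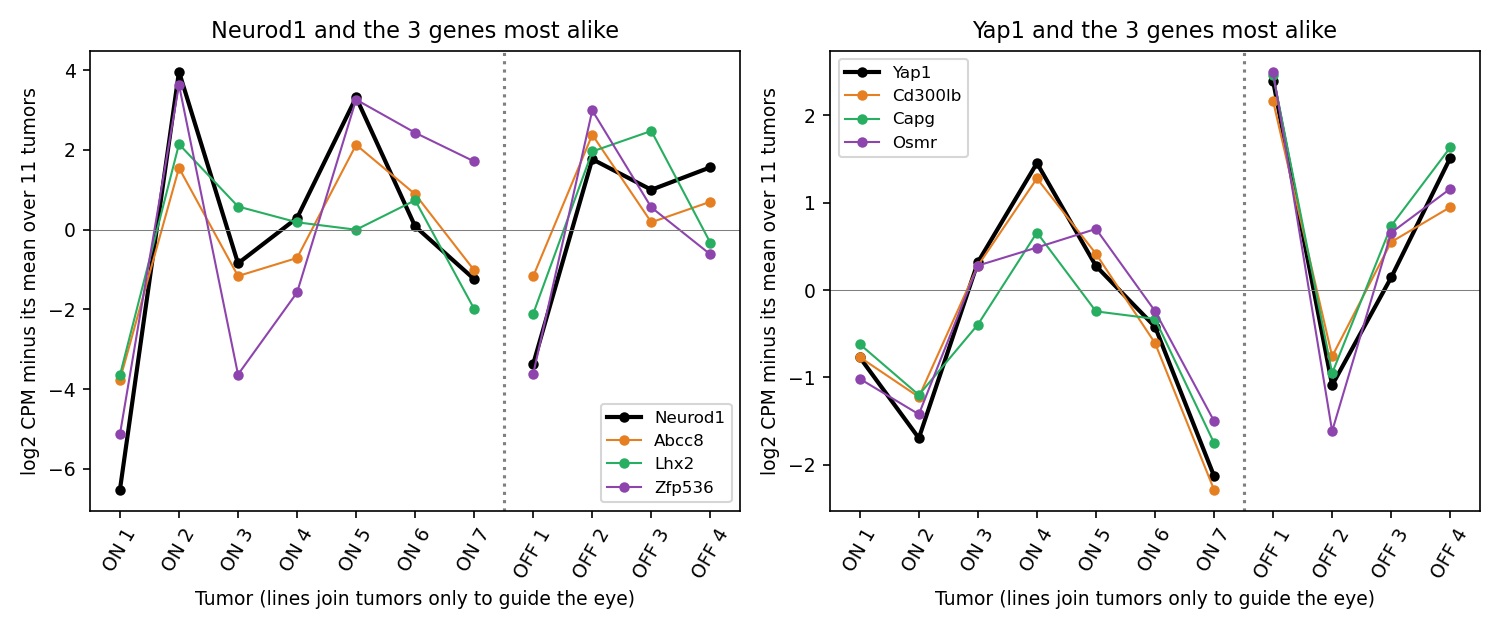
Mean-centred log2 CPM over the 11 tumors of Neurod1 and of Yap1, each with the 3 genes whose profile lies closest. The distances are 0.298 to 0.462 in the Yap1 group and 1.46 to 1.76 in the Neurod1 group. They are not scaled by a gene's spread, which is wider for Neurod1 (SD 2.99 against 1.40 over the 11 tumors).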

How the data were processed

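RNA of 11 tumors was measured by poly(A) RNA-seq. The labels' protocols name TRIzol, oligo-dT selection and the NEBNext Ultra RNA kit. The submitters' processing notes list TopHat2 2.0.8b, HTSeq 0.6.1, bcl2fastq 1.8.4 and the build mm9. The annotation and strand setting are not given in the sources used here. What the authors deposited is one table of raw read counts for each tumor, by gene symbol. The 5 summary rows that name no gene were left out of library sizes and tests. Reads without a gene made up 14.8% to 21.5% of a tumor's records, and reads aligned to several places, counted for no gene, 9.15% to 20.9%.

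Groups and tumor numbers came from the titles. The count analysis used edgeR 4.0.16 under R 4.3.3 (filterByExpr with a minimum count of 10 and a minimum total of 15, TMM factors, robust quasi-likelihood test, no covariate), adjusted over all 15237 genes tested by Benjamini-Hochberg and called below 0.05. Each SE was taken as the size of the log2 fold change over the root of its F statistic. Values after ± are SDs over tumors. Log2 CPM used a prior count of 2, and exact permutation tests ran over 330 assignments (smallest p 0.00303), with a raw p per factor for 8 factors. Intervals came from limma 3.58.1 voom at 95%. The biological coefficient of variation was 53.7%, so tumor spread rather than depth set the precision. Tumors of a group all differed by more than sampling noise (smallest chi-square per gene 51). Floors cover counting error only. Exon lengths came from GENCODE vM21 (GRCm38) and promoters from RefSeq, matched by symbol.

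The names of the subtype factors and the 7 gene lists were drawn up with earlier results of these data known, though no measured value entered the rule that takes the factors. Named genes were the 9 factors, up to 4 genes of each list with the smallest p, and the 3 named genes closest in profile to each factor with an SD above 1 over all 11 tumors. A gene that this rule takes is not reported here. The values of Syp and of the tuft cell genes Dclk1, Alox5, Gfi1b, Il25, Gnat3 and Trpm5 were chosen after their values were seen. Alternatives were other scalings, DESeq2 1.42.0, voom with and without sample weights, other low-count filters and prior counts, the tumor number as a block, the mean log2 CPM of lung (alveolar type II and club) or immune markers as a covariate, and each tumor left out. The split at 100 CPM of Sftpc was chosen after seeing the data. On simulated counts for 15039 genes, the test recovered 18.2% of 99 2-fold and 56% of 100 4-fold changes with 1 false call. Only these genes were changed there, whereas 29.4% of genes were called in the data, so the adjusted threshold was stricter in the simulation. The shares recovered therefore do not give the power of the test on these tumors.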

Additional observations from a re-analysis of the deposited data

Results flagged for a closer look

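Within each group of tumors, 8 factors gave 16 sets of values to search for a tumor far from the others, and 2 sets had one. Both were MYCN OFF tumor 1. Its Insm1 level was 7.169 on the log2 CPM scale, with the nearest other MYCN OFF tumor at 8.122, a gap that took up 0.854 of the group's range and passed Dixon's critical value. Its Neurod1 level was 0.616 on the log2 CPM scale, with the nearest other tumor at 4.984 and a gap share of 0.851. Chance alone marks about 1 in 20 such sets. The same tumor had the highest summed levels of alveolar type II (15780 CPM), club (16790 CPM) and immune markers (397 CPM), and their part in these low values was not tested.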

How the results depend on the processing

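With the scaling changed, the counts of genes higher and lower in MYCN ON moved from 2437 and 2038 to 1317 and 3347 under library totals alone. The share of calls that were higher was 54.5%, 48% under RLE factors, 37% under upper quartile factors and 28.2% under library totals, and the median of all genes shifted by -0.21 and -0.31 under the last 2. Higher and lower counts were 1194 and 559 with the lung score as covariate, 1061 and 595 with the immune marker score, and 0 and 0 within either Sftpc class, where DESeq2 and voom were not run and the unadjusted p was below 0.05 for 2288 genes under 100 CPM and 3898 at 100 CPM or more. Leaving out each tumor gave 1674 to 2955 higher and 1015 to 2438 lower genes.

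Nfib had log2 fold changes of 0.98 (RLE, adjusted p = 0.0563), 0.87 (upper quartile), 0.75 (library totals), 1.01 (no low-count filter), 1.04 (stricter filter), 0.78 (lung score), 0.58 (immune score), and 0.14 and 1.51 in the Sftpc classes, none called, and 0.85 to 1.55 with each tumor left out. It was called under DESeq2, voom, and voom with sample weights (adjusted p = 0.0203, 0.028 and 0.00504). Nkx2-1 turned sign under RLE factors and DESeq2 (-0.026 and -0.026), upper quartile (-0.15), library totals (-0.27), no filter (-0.0045), the lung score (-0.16), the immune score (-0.44) and Sftpc under 100 CPM (-0.63), and ran from -0.18 to 0.35 with each tumor left out. Neurod1 turned under voom (-0.26) and with sample weights (-0.95), and was 0.064 to 1.31 with each tumor left out. Yap1 turned with the lung score (0.069), the immune score (0.48) and Sftpc under 100 CPM (0.95). Foxa1 turned at Sftpc of 100 CPM or more (0.012) and ran from -0.27 to 0.14 with each tumor left out. Prox1 turned under 100 CPM (-0.18) and ran from 0.42 to 1.29 with each tumor left out. The cause of these changes was not tested. Insm1 and Foxa2 kept their sign in all 24 alternatives, but Insm1 ran from 0.32 to 0.96 and Foxa2 from -0.58 to -0.011. The class with Sftpc under 100 CPM holds 1 MYCN OFF tumor, number 2, assumed to vary like the others, so its values are those of that tumor, and the lost calls there say nothing of stability.

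The exact permutation p of Nfib was 0.0576 under library totals, and 0.00833 to 0.05 with each tumor left out; that of Nkx2-1 was 0.536 and 0.367 to 0.981. With each tumor left out it was 0.0143 to 0.183 for Insm1, 0.483 to 0.992 for Neurod1, 0.348 to 0.967 for Foxa1, 0.0833 to 0.9 for Foxa2 and 0.025 to 0.233 for Prox1. 

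The number of subtype factors called was 0 under RLE, upper quartile and library totals, with no or a stricter filter, with either marker score and in both Sftpc classes, and 0 to 2 with each tumor left out. Within both Sftpc classes 0 genes of any list were called. Of all genes tested, 11.5% were called with the lung score, 10.9% with the immune score, 36.7% under DESeq2 and 39.8% with voom weights. With each tumor left out, that share was 18.6% to 34.8%. Neuroendocrine calls were 7 with voom sample weights. Neurogenic calls were 0 under the 3 scalings, both filters and both marker scores, 3 under DESeq2 and 2 under voom with and without weights. Tuft cell calls were 1 with the lung score and 0 with the immune score. Hippo calls were 4 under upper quartile, 5 under library totals, 6 under DESeq2, 8 with voom weights and 1 with either score. Lung lineage calls were 6 under DESeq2, 7 with voom weights and 0 with either score. The lung score was built mostly from genes of this same list, so the 0 with that score says little. Paralog calls were 0 under library totals and with either score, and 2 under DESeq2 and voom weights. Non-neuroendocrine calls were 11 under DESeq2 and 1 with either score. With each tumor left out, the counts were 2 to 7 (neuroendocrine), 0 to 3 (neurogenic), 2 to 7 (tuft), 1 to 7 (Hippo), 1 to 8 (lung lineage), 0 to 1 (paralogs) and 1 to 12 (non-neuroendocrine).

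Tumor numbers 1 to 4 occur in both groups, but the labels do not say that they pair tumors. The deviations of same-numbered tumors correlated at -0.162, 0.462, -0.0763 and 0.265, and 2 of 4 MYCN OFF tumors correlated best with their own number. These values neither show nor exclude pairs. As the labels state none, the numbers were not taken as pairs. With the number as a replicate block, 1152 genes were lower, 2 subtype factors were called, Nfib (0.92, adjusted p = 0.0251) and Insm1 (0.96, adjusted p = 0.0402), Neurod1 was -0.86 and Nkx2-1 was -0.052. In the block fit the calls were 1 in the tuft, 2 in the paralog and 2 in the non-neuroendocrine list. MYCN ON tumors 5 to 7 have no counterpart, so the block fit matched each exactly. They added neither to its fold changes nor to its residual spread.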
